A study of Mus musculus with 7 samples.

Results

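The unfolded protein response and the integrated stress response were described here through 10 genes that carry both pathways, namely Hspa5, Ern1, Eif2ak3, Atf6, Xbp1, Atf4, Ddit3, Trib3, Dnajb9 and Herpud1. The genes were found by their symbols, and the choice of genes was made with earlier results of these data known. All 10 were found among the 48440 genes of the LPS table and among the 55352 genes of the AAV table, and all 10 passed the filter of a mean value of at least 1 in each. The cells were bone-marrow-derived macrophages (BMDMs), which are cultured from mouse marrow with the growth factor M-CSF, here from wild-type C57BL/6 mice that the study's methods give as 6 to 12 weeks of age and of both sexes. In the LPS experiment, BMDMs received no LPS (0 h) or 100 ng/mL LPS, a component of the bacterial outer membrane, during 2 h or 4 h, and each time point was 1 library. In the AAV experiment, 2 samples carried an adeno-associated virus of serotype 1 that encoded Shisa3 (AAV-Shisa3) and 2 carried the same kind of virus encoding green fluorescent protein (AAV-GFP), all for 48 h and both driven by the ubiquitously active CAG promoter. No library of untransduced cells was measured beside the AAV samples, so every AAV sample here had met the virus. It is not stated whether samples of a group came from separate mice or cultures, so the spread between these samples may be technical. The p-values below rest on that spread together with a spread estimated over all genes tested, since a single gene has few samples.

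Proteins that misfold in the endoplasmic reticulum (ER) are sensed at its membrane by IRE1α, PERK and ATF6, the products of Ern1, Eif2ak3 and Atf6. BiP, the chaperone encoded by Hspa5, binds the sensors at rest and is itself a target of the response. IRE1α splices the Xbp1 mRNA so that it encodes an active transcription factor, and PERK phosphorylates the translation factor eIF2α, which slows protein synthesis while favouring translation of Atf4. ATF4 in turn drives Ddit3, which encodes CHOP, and Trib3, a pseudokinase that damps the pathway. Other eIF2α kinases respond to amino acid shortage, double-stranded RNA or haem shortage, so ATF4 and its targets can also be switched on without ER stress. In macrophages the IRE1α and XBP1 branch is known to take part in signalling from Toll-like receptors, the family that recognises LPS. These values are mRNA levels of whole genes and do not separate spliced from unspliced Xbp1, nor do they show phosphorylation or cleavage of the sensors.

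The promoter sequences of some of the 10 genes are shown first, because ATF6, XBP1 and ATF4 act through short DNA motifs. Windows of 250 bases upstream of the gene start were taken from RefSeq on GRCm38.p6, and both strands were searched. An entry was available for 9 of the 10 genes, all except Atf6. The ER stress response element (ERSE), which ATF6 and XBP1 bind with the factor NF-Y, was written as CCAAT and CCACG 9 bases apart. A second form (ERSE-II, a search added after the values were seen) was written as ATTGG and CCACG 1 base apart, and the element through which ATF4 and C/EBP proteins act was written as TGATGNAA. CCACG was also searched on its own and lies inside both ERSE forms. Each window is given on the strand of the gene, in lower case with bases of matched motifs in capitals.
Hspa5, chr2:34771840-34772089, plus strand: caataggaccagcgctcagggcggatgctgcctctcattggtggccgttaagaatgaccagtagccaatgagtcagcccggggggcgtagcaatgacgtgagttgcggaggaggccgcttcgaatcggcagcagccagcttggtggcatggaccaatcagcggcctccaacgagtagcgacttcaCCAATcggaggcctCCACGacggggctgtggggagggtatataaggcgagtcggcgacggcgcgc
Herpud1, chr8:94386179-94386428, plus strand: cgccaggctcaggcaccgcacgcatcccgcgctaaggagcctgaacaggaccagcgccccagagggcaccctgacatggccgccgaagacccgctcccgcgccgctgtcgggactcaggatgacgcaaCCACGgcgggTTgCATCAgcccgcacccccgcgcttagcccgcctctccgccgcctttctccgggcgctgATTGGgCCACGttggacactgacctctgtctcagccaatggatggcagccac
Atf4, chr15:80254934-80255183, plus strand: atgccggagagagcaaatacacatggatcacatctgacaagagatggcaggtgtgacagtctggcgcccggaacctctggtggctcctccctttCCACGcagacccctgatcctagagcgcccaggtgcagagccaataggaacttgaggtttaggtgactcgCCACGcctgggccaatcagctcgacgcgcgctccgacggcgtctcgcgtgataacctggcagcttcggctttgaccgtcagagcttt
Ddit3, chr10:127290543-127290792, plus strand: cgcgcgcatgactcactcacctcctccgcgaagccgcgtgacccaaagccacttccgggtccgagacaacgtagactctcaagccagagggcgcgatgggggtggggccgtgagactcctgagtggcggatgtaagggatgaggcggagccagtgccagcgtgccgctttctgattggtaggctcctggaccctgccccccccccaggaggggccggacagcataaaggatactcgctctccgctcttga
Trib3, chr2:152344061-152344310, minus strand: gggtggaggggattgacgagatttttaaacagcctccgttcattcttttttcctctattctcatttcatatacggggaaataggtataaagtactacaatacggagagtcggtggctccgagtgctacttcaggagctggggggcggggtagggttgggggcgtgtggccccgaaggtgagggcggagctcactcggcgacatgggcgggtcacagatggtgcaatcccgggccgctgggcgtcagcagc

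Hspa5 was the single gene of the 9 with ERSE, at positions -65 to -47 from the gene start, and 0.113% of all 32851 windows held this motif. Herpud1, which encodes an ER membrane protein that helps degrade misfolded proteins, was the single gene of the 9 with ERSE-II, at -52 to -42, against 0.0304% of all windows. Herpud1 also carried TGATGNAA on the minus strand at -112 to -105, a motif found in 3.45% of windows. CCACG alone lay in the windows of 5 of the 9 genes (Hspa5, Herpud1, Atf4, Ern1 and Dnajb9) and in 28.3% of all windows. TGACGTGG and TGACGTCA, which hold the ACGT core that several of these factors recognise, were in none of the 9 windows and in 0.563% and 1.55% of all windows. No searched motif lay in the windows of Ddit3, Trib3, Eif2ak3 and Xbp1, which says only that these letters are not within 250 bases of the annotated start.

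The LPS table held 15588502, 7263258 and 32659392 recovered reads at 0 h, 2 h and 4 h, so the 2 h library was the shallowest. The AAV table gave TPM, an abundance scaled for transcript length and for the library total, and its depth is unknown. Summed TPM of 8 macrophage markers lay between 34736 and 36801 in the AAV-GFP samples and between 35865 and 38318 in the AAV-Shisa3 samples, and all 8 were above the filter, as were all 8 in the LPS table. Shisa3 itself was 7.88 and 10.9 TPM in AAV-GFP and 12.3 and 17.8 TPM in AAV-Shisa3, higher in both AAV-Shisa3 samples but with an adjusted p of 0.138 by limma (0.0287 with the replicate block). The study itself reported overexpression in BMDMs at 48 h, showing both Shisa3 mRNA and protein. In such bulk RNA, fewer cells of a type and less RNA per cell cannot be told apart.

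The first comparison asked what enforced Shisa3 expression changed in BMDMs. Of the 10 stress response genes, 4 fell in AAV-Shisa3 (Atf4, Herpud1, Atf6 and Ddit3) and 0 rose, by limma with Benjamini-Hochberg adjustment over 11218 genes. The falls ranged from 1.39-fold for Herpud1 to 1.59-fold for Atf6, and the order of Atf6 and Ddit3, as of Herpud1 and Atf4, lies within their errors and turned without AAV-Shisa3 replicate 1. Across all genes tested, 4.10% fell and 2.23% rose. At an unadjusted p under 0.05, 6 of the 10 were lower and 0 higher, against 19.8% and 8.21% of all genes. In 9 of the 10, every gene except Trib3, both AAV-Shisa3 samples lay below both AAV-GFP samples, against 41.2% of all genes, and 18.2% of all genes lay the other way round. The median log2 fold change of the 10 genes was -0.32, beside -0.10 over all genes. With each sample centred on its own median, these medians were -0.21 and 0.01, and 1 gene, Atf6, stayed past the threshold (adjusted p = 0.046). The calls also depended on the model of the spread, with 0 of the 10 called in limma without the intensity trend (7 at an unadjusted p under 0.05) and 0 with no filter on low values (6), while the replicate block and a minimum of 1 TPM in every sample each gave 5, with Hspa5 added (adjusted p = 0.0311 and 0.0485). Leaving out 1 sample leaves a group of 1, which limma assumes to vary like the other group, and then 0 of the 10 and at most 10 of all genes were called lower. The log2 fold changes without 1 sample ran from -0.51 to -0.46 for Atf4, from -0.52 to -0.44 for Herpud1 and from -0.76 to -0.57 for Atf6. In all of these alternatives 9 of the 10 genes stayed lower, and Trib3 turned sign with centring and without AAV-GFP replicate 1 or AAV-Shisa3 replicate 1. Over all genes, centring changed the split from 460 lower and 250 higher to 230 lower and 410 higher.

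**Figure D1:**
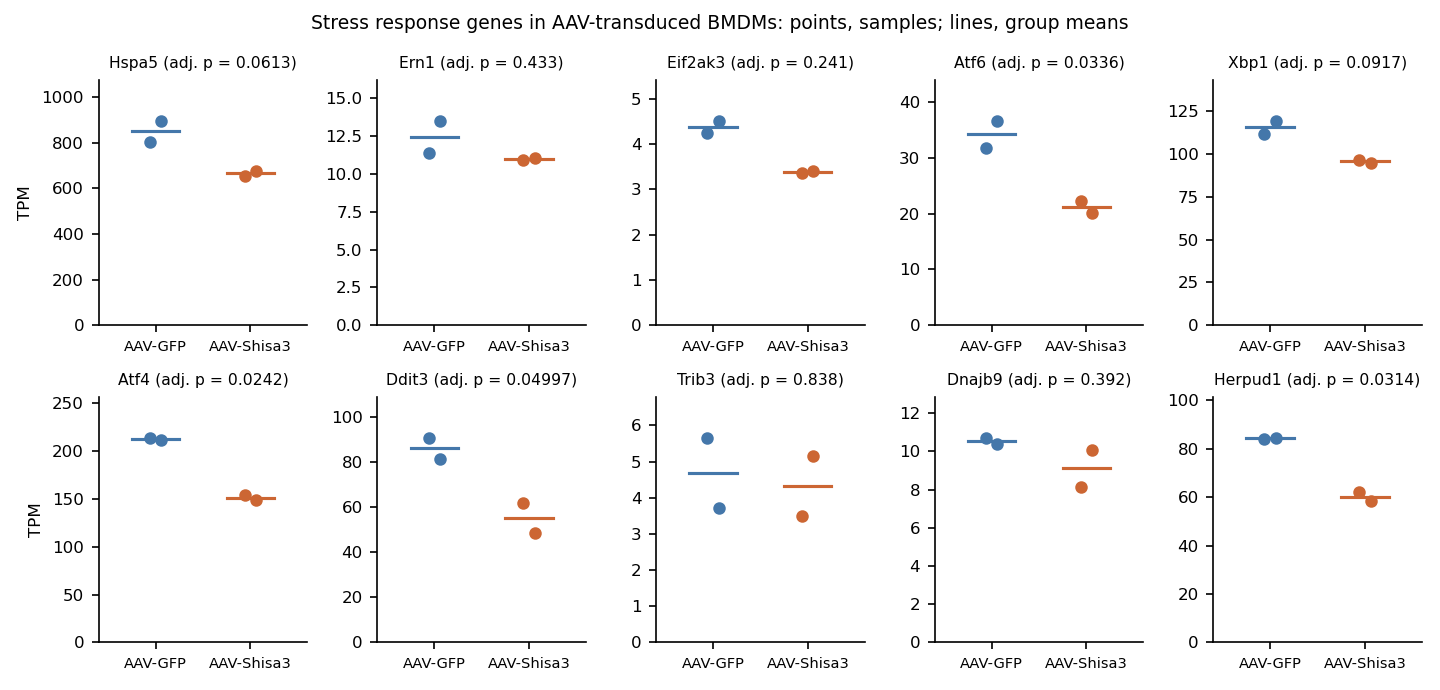
Each panel plots the TPM of 1 gene (vertical axis from 0) in the AAV-GFP and AAV-Shisa3 samples, with points for samples, a line for the mean of 2 and the limma adjusted p above. Both AAV-Shisa3 points lie below both AAV-GFP points in every panel except that of Trib3.

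Hspa5, the chaperone whose mRNA is the usual gauge of ER stress, was the most abundant of the 10 genes. It measured 805 and 896 TPM in AAV-GFP and 656 and 678 TPM in AAV-Shisa3. The groups did not overlap and the mean was 21.6% lower, but the log2 fold change of -0.35 ± 0.080 (standard error, n = 2 per group) had a limma adjusted p of 0.0613 in the main fit, and passed only with the replicate block or with the minimum in every sample.

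Among the sensors, Atf6 passed the test. It was 31.85 and 36.7 TPM in AAV-GFP and 22.3 and 20.1 TPM in AAV-Shisa3, a log2 fold change of -0.67 ± 0.11 (standard error, n = 2 per group, limma adjusted p = 0.0336). ATF6 is itself a transcription factor, released from the membrane by cleavage. Eif2ak3, for PERK, was 4.25 and 4.51 TPM against 3.35 and 3.40 TPM, without overlap (log2 fold change -0.30 ± 0.15, limma adjusted p = 0.241, n = 2 per group). Ern1, for IRE1α, was 11.4 and 13.5 TPM against 10.92 and 11.03 TPM, and its log2 fold change of -0.16 ± 0.13 was close to its standard error (limma adjusted p = 0.433, n = 2 per group).

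The transcription factor genes were both lower in each AAV-Shisa3 sample. Atf4 was 213 and 212 TPM in AAV-GFP and 154 and 149 TPM in AAV-Shisa3, and its samples agreed within a few TPM in each group. Its log2 fold change of -0.49 ± 0.069 (standard error, n = 2 per group) gave the smallest adjusted p of the 10 genes, 0.0242 by limma. Xbp1 was 112 and 119 TPM against 96.5 and 94.8 TPM, 17.3% lower on the mean (log2 fold change -0.27 ± 0.076, limma adjusted p = 0.0917, n = 2 per group). Since ATF4 is controlled largely through translation, its mRNA level is only one layer of its control.

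Of the ATF4 outputs, Ddit3 fell and Trib3 did not differ beyond its spread. Ddit3 was 90.7 and 81.6 TPM in AAV-GFP and 61.9 and 48.6 TPM in AAV-Shisa3, with a log2 fold change of -0.64 ± 0.13 (standard error, n = 2 per group). Its limma adjusted p of 0.04997 sat at the threshold, and without one or another sample its log2 fold change ran from -0.81 to -0.47. Trib3, at 5.65 and 3.71 TPM against 3.50 and 5.16 TPM, overlapped between the groups (log2 fold change -0.09 ± 0.24, limma adjusted p = 0.838, n = 2 per group). Ddit3 overlaps Mars on the opposite strand and a further gene model on the same strand in GENCODE M21, and the strand setting of the counting is not stated, so reads of these genes may not be fully told apart. Within a sample, Ddit3 stood at 42.5 and 38.6 TPM per 100 TPM of Atf4 in AAV-GFP and at 40.3 and 32.7 in AAV-Shisa3. These ratios overlapped between the groups.

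Of the outputs of the XBP1 and ATF6 branches, Herpud1 passed the test and Dnajb9 did not, and the difference between them was not tested. Herpud1 was 84.2 and 84.4 TPM in AAV-GFP and 62.0 and 58.6 TPM in AAV-Shisa3, a log2 fold change of -0.48 ± 0.078 (standard error, n = 2 per group, limma adjusted p = 0.0314). Dnajb9, which encodes the ER co-chaperone ERdj4, was 10.7 and 10.4 TPM against 8.14 and 10.1 TPM. The groups of Dnajb9 were separated by only the narrow gap between 10.4 and 10.1 TPM (log2 fold change -0.20 ± 0.14, limma adjusted p = 0.392, n = 2 per group). Dnajb9 shares 93.3% identity over 697 bases with the gene model Gm6568, and Herpud1 overlaps the antisense gene Gm15890, so both values carry that uncertainty.

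Summed markers of neutrophils, plasma cells and T and B cells were higher in both AAV-Shisa3 samples, and those of fibroblasts overlapped between the groups. Summed TPM of 8 neutrophil markers was 565 to 593 in AAV-GFP and 681 to 1090 in AAV-Shisa3, with 0 of the 8 at 0 in every sample. A list of 4 markers of plasma cells, which carry a heavy secretory load, summed to 36.4 to 42.8 TPM in AAV-GFP and 60.25 to 61.7 TPM in AAV-Shisa3, with the defining gene Mzb1 at 0 in every sample. Markers of T and B cells (7 genes) summed to 6.07 to 7.60 TPM and 9.03 to 10.7 TPM with Cd3e and Cd3d at 0, and just 1 of these 7 markers and 2 of the 4 plasma cell markers reached a mean of 1 TPM. The 5 fibroblast markers summed to 12.4 to 16.3 TPM in AAV-GFP and 9.39 to 12.8 TPM in AAV-Shisa3. The part of all these marker lists in the falls of the stress response genes was not tested.

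The rest of the pathway was read from 7 further lists, with 199 genes in all and 189 tested in the AAV experiment, of which 5 fell and 2 rose, shares below the 4.10% and 2.23% of all genes. With each sample centred on its median 1 list gene was lower (Gpt2) and 4 were higher, and Gdf15, Jdp2, Sars and Pdia4 were no longer called (adjusted p = 0.0707, 0.0551, 0.0551 and 0.0622). These lists were chosen with earlier results of these data known. All of the calls but 2 lay in the list of 36 ATF4 and CHOP targets, of which 32 were tested, 3 fell and 2 rose, with a median log2 fold change of -0.11 beside -0.10 for all genes (0.004 beside 0.01 with median centring). Gpt2, a mitochondrial alanine aminotransferase, fell to 2.07 and 2.06 TPM in AAV-Shisa3, against 4.95 and 6.70 TPM in AAV-GFP (limma, log2 fold change -1.14, adjusted p = 0.0303). Gdf15, a stress-induced cytokine, was 49.4 and 34.9 TPM in AAV-GFP and fell to 22.5 and 21.3 TPM (-0.89, adjusted p = 0.0409). Jdp2, a bZIP repressor, was 19.4 and 22.2 TPM in AAV-GFP and fell to 10.8 and 13.5 TPM (-0.73, adjusted p = 0.0431). The list thus held genes in both directions. Slc7a5, a subunit of the large neutral amino acid transporter, was 14.9 and 15.2 TPM in AAV-GFP and rose to 22.25 and 23.3 TPM (0.57, adjusted p = 0.0341). Cebpb, an inflammatory transcription factor, was 298 and 323 TPM in AAV-GFP and rose to 405 and 461 TPM (0.48, adjusted p = 0.0422).

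The other 2 calls were falls. Sars, the seryl-tRNA synthetase, was 1 of 20 aminoacyl-tRNA synthetases tested (AAV-GFP 151 and 153 TPM, AAV-Shisa3 112 and 107 TPM, limma log2 fold change -0.47, adjusted p = 0.0272). Pdia4, a protein disulfide isomerase, was 1 of 30 ER chaperones and folding enzymes tested (AAV-GFP 81.4 and 79.7 TPM, AAV-Shisa3 56.4 and 46.4 TPM, limma log2 fold change -0.65, adjusted p = 0.0343). The chaperone list had a median of -0.19 beside -0.10 for all genes (-0.08 beside 0.01 with median centring), with both AAV-Shisa3 samples below both AAV-GFP samples in 18 of the 30 and above in 3, against 41.2% and 18.2% of all genes. Below and above were 21 and 3 of the 32 genes of ER-associated degradation, 10 and 0 of the 20 synthetases, 12 and 9 of the 32 ATF4 and CHOP targets, 9 and 8 of the 42 genes of translocation and transport, 7 and 6 of the 20 regulators and 3 and 4 of the 13 kinases and phosphatase subunits. In limma, 0 genes passed in either direction among 13 eIF2α kinases and phosphatase subunits (2 lower and 0 higher at an unadjusted p under 0.05), 32 genes of ER-associated degradation (7 and 1), 42 of translocation and ER-to-Golgi transport (7 and 2) and 20 regulators at the ER membrane (3 and 2), where 19.8% and 8.21% of all genes were lower and higher at that p. Their medians were -0.01, -0.14, -0.02 and -0.03 beside -0.10 for all genes, and with median centring they were 0.10, -0.03, 0.10 and 0.08 beside 0.01. For the lists with calls, limma gave as lower and higher at an unadjusted p under 0.05 10 and 0 of the 30 chaperones, 9 and 6 of the 32 ATF4 and CHOP targets and 3 and 0 of the 20 synthetases. When any 1 sample was left out, limma called 0 of the list genes in either direction, with 23 to 28 lower and 6 to 9 higher at an unadjusted p under 0.05, beside 1290 to 1723 lower and 620 to 806 higher over all genes.

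Most of the tested genes that share the ERSE motif with Hspa5 lay below the AAV-GFP level, and none passed the test. Of 34 such genes besides Hspa5, 14 were tested, and in 11 of these both AAV-Shisa3 samples were below both AAV-GFP samples, with 0 the other way round, against 41.2% and 18.2% of all genes. The exceptions were Pan2, Derl3 and Xlr3b, whose samples overlapped. In limma 0 of the 14 passed the adjusted threshold, 4 were lower and 0 higher at an unadjusted p under 0.05, against 19.8% and 8.21% of all genes, and the median log2 fold change was -0.23 beside -0.10 for all genes (-0.11 beside 0.01 with median centring). Calr, the calcium-binding chaperone calreticulin, was 880.4 and 878 TPM in AAV-GFP and 717 and 649 TPM in AAV-Shisa3 (log2 fold change -0.36, adjusted p = 0.0517). Creld2, a secreted ER stress gene, was 61.2 and 68.6 TPM against 49.1 and 46.0 TPM (-0.44, adjusted p = 0.0534). Of the tested genes with ERSE-II besides Herpud1, Gm46430, Nucb1 and Rbm39 were lower in both AAV-Shisa3 samples and Lrif1 overlapped. Rcl1 went the other way, at 9.13 and 10.1 TPM in AAV-GFP and 15.3 and 12.8 TPM in AAV-Shisa3 (limma, log2 fold change 0.50, adjusted p = 0.0842).

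The second comparison followed the same genes through LPS stimulation. Since each time point was 1 library, no test was made, and the intervals below are exact 95% intervals of the ratio that cover counting error only. Hspa5 was higher at each later time, Atf4 and Xbp1 were higher, the mRNAs of the sensors Ern1 and Eif2ak3 were lower at both times, and Ddit3 and Dnajb9 were lowest at 2 h. A gene was counted when its log2(value + 1) differed by at least 1, that is by about 2-fold. At 2 h, 2 of the 10 genes were past this size upwards (Hspa5 and Atf4) and 3 downwards (Ern1, Eif2ak3 and Dnajb9), against 20.5% and 24.7% of 17854 genes. At 4 h against 0 h, 3 were higher (Hspa5, Atf4 and Xbp1) and 2 lower (Ern1 and Eif2ak3), against 22.2% and 23.6%. Between 2 h and 4 h, 2 were higher (Ddit3 and Dnajb9) and 0 lower, against 17.9% and 15.2%. These shares of the 10 genes lie near those of all genes, so the count itself does not set the pathway apart.

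The scale of the libraries decides the direction of several genes. The deposited values sum to different totals per library, and scaling the recovered reads to library totals lowers every ratio at 2 h by 0.66 and at 4 h by 0.82 on the log2 scale. On the deposited values 8 of the 10 genes were higher at 4 h than at 0 h, and on library totals 3 were. On both scales, and with TMM or median centring, Hspa5, Atf4 and Xbp1 were higher at 4 h and Ern1 and Eif2ak3 were lower at both times, together with the lower values of Ddit3 and Dnajb9 at 2 h. Against 0 h, library totals left Hspa5 as the 1 gene past 2-fold upwards at either time, with 4 genes past it downwards at 2 h and 2 at 4 h. On that scale 13.3% of all genes were higher and 40.6% lower at 2 h, and 12.8% and 44.5% at 4 h.

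**Figure D2:**
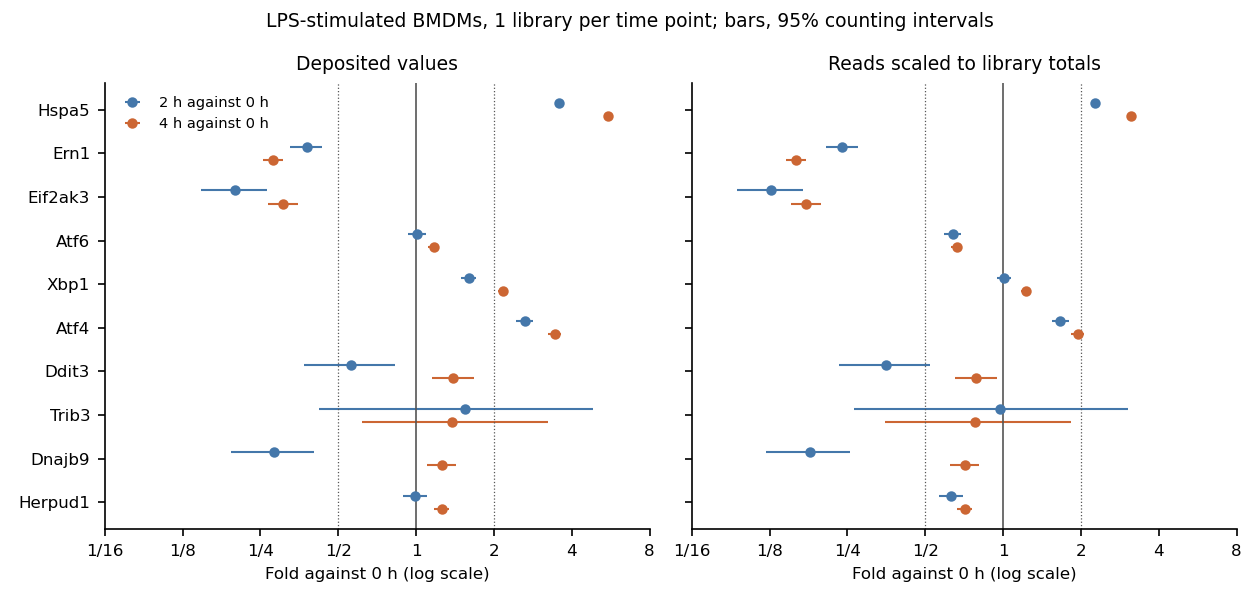
The horizontal axes give the fold against 0 h of LPS on a log scale for deposited values (left) and for reads scaled to library totals (right), 1 library per time point, with 95% counting intervals and dotted lines at 2-fold. Hspa5 is above 1, and Ern1 and Eif2ak3 are below 1, in both panels, whereas Atf6 and Herpud1 move from near or above 1 on the left to below 1 on the right.

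Hspa5 had deposited values of 4450.1, 15884 and 24602 at the 3 time points, from 6918, 7274 and 45273 reads. It was higher at each step, 3.57-fold at 2 h (interval 3.45 to 3.69) and 5.53-fold at 4 h (5.39 to 5.67). On library totals the same ratios were 2.26 and 3.12. In the other experiment its log2 fold change of -0.35 in AAV-Shisa3 had not passed the test.

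The mRNAs of the kinase sensors moved the other way. Ern1 was at 1269, 478 and 354 at 0 h, 2 h and 4 h, 2.65-fold lower at 2 h (2.31 to 3.07) and 3.58-fold lower at 4 h (3.28 to 3.92), and on library totals 4.20-fold and 6.34-fold lower. Eif2ak3 was at 556, 111 and 170.1, 5.00-fold lower at 2 h (3.77 to 6.76) and 3.27-fold lower at 4 h (2.87 to 3.74), and on library totals 7.90-fold and 5.79-fold lower. Ern1 kept falling to 4 h, whereas Eif2ak3 was 1.53-fold higher at 4 h than at 2 h (1.13 to 2.10). Ratios within a library do not depend on its scale. For each 100 reads of Hspa5 there were 28.5 reads of Ern1 at 0 h (27.1 to 30.0), 3.01 at 2 h (2.62 to 3.44), then 1.44 at 4 h (1.33 to 1.56). For Eif2ak3 these were 12.5 (11.6 to 13.4), 0.701 (0.522 to 0.923) and 0.691 (0.617 to 0.773), so most of that shift was present by 2 h. These ratios were chosen after the values were seen. Per kilobase, Hspa5, Ern1 and Eif2ak3 were at 1212, 183 and 123 at 0 h and at 6700, 51.0 and 37.7 at 4 h. In AAV-GFP, also without LPS, Ern1 stood at 1.42 and 1.51 TPM per 100 TPM of Hspa5, and Eif2ak3 at 0.528 and 0.503. Since 0 h was 1 library, whether its ratios are typical of cells without LPS was not tested.

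Atf6 changed little. Its value was 1884, 1899.8 and 2206, a ratio of 1.01 at 2 h (0.934 to 1.09) and 1.17 at 4 h (1.12 to 1.23), and on library totals it was lower, at 0.638 and 0.662. The direction for Atf6 therefore rests on the scale, unlike that of the kinase sensors.

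Of the transcription factors, Atf4 was at 1031, 2714 and 3539, 2.63-fold higher at 2 h (2.44 to 2.84) and 3.43-fold at 4 h (3.25 to 3.63), or 1.66 and 1.94 on library totals. Xbp1 was at 1915, 3055 and 4158, 1.595-fold higher at 2 h (1.496 to 1.70) and 2.17-fold at 4 h (2.08 to 2.27). On library totals Xbp1 was 1.01 at 2 h and 1.23 at 4 h, so at 2 h its higher value was not seen on library totals, whereas TMM (log2 0.61) and median centring (0.99) kept it.

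Ddit3 did not follow Atf4. Its values were 117, 65.5 and 162 over the 3 time points, from 182, 30 and 299 reads, a ratio of 0.560 at 2 h (0.367 to 0.827) and 1.39 at 4 h (1.15 to 1.68). At 4 h it was 2.48-fold above 2 h (1.70 to 3.74). On library totals Ddit3 was below its 0 h level at both times, at 0.354 and 0.784. Within a library there were 11.4 reads of Ddit3 for each 100 of Atf4 at 0 h (9.69 to 13.2), 2.41 at 2 h (1.62 to 3.46), then 4.59 at 4 h (4.08 to 5.16), lower after LPS at both times. Trib3, the other output, was near the limit of detection, with 11, 5 and 18 reads at values of 7.08, 10.9 and 9.78. Its counting intervals include 1 at 2 h (0.420 to 4.82) and at 4 h (0.618 to 3.24), so a difference was not detectable at this depth.

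Dnajb9 dipped at 2 h and was higher again at 4 h. It was at 255, 72.1 and 321, from 397, 33 and 590 reads, 3.54-fold lower at 2 h (2.48 to 5.22) and at a ratio of 1.26 at 4 h (1.10 to 1.43). At 4 h it was 4.45-fold above 2 h (3.13 to 6.52) and 3.98-fold on library totals, the largest ratio of the 10 genes over that step on both scales. On library totals it was at 0.178 and 0.709 of its 0 h level. For each 100 reads of Xbp1, its upstream factor, there were 13.3 reads of Dnajb9 at 0 h (11.98 to 14.8), 2.36 at 2 h (1.62 to 3.33), then 7.71 at 4 h (7.08 to 8.39). Herpud1 showed no such dip on deposited values. It was at 972, 965 and 1222, a ratio of 0.993 at 2 h (0.891 to 1.10) and 1.26 at 4 h (1.18 to 1.34), and on library totals 0.628 and 0.710.

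Levels were compared between genes per transcript length. In AAV-GFP the order of mean TPM was Hspa5 at 851 ± 64.5 (SD, n = 2), Atf4 at 212 ± 1.27, Xbp1 at 116 ± 5.23, Ddit3 at 86.2 ± 6.43, Herpud1 at 84.3 ± 0.127, Atf6 at 34.3 ± 3.42, Ern1 at 12.5 ± 1.49, Dnajb9 at 10.5 ± 0.212, Trib3 at 4.68 ± 1.37 and Eif2ak3 at 4.38 ± 0.184. Ddit3 and Herpud1 overlapped in range, as did Trib3 and Eif2ak3. In the LPS table, the value per kilobase at 0 h put Hspa5 first at 1212, then Xbp1 at 899.5 and Atf4 at 598, with Trib3 last at 3.49. At 4 h Hspa5 stood at 6699.8 per kilobase, ahead of Atf4 at 2051 and Xbp1 at 1953, and Ern1 had gone from the sixth place to the eighth. The LPS and AAV tables were normalized separately, so their levels were not set against each other.

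**Figure D3:**
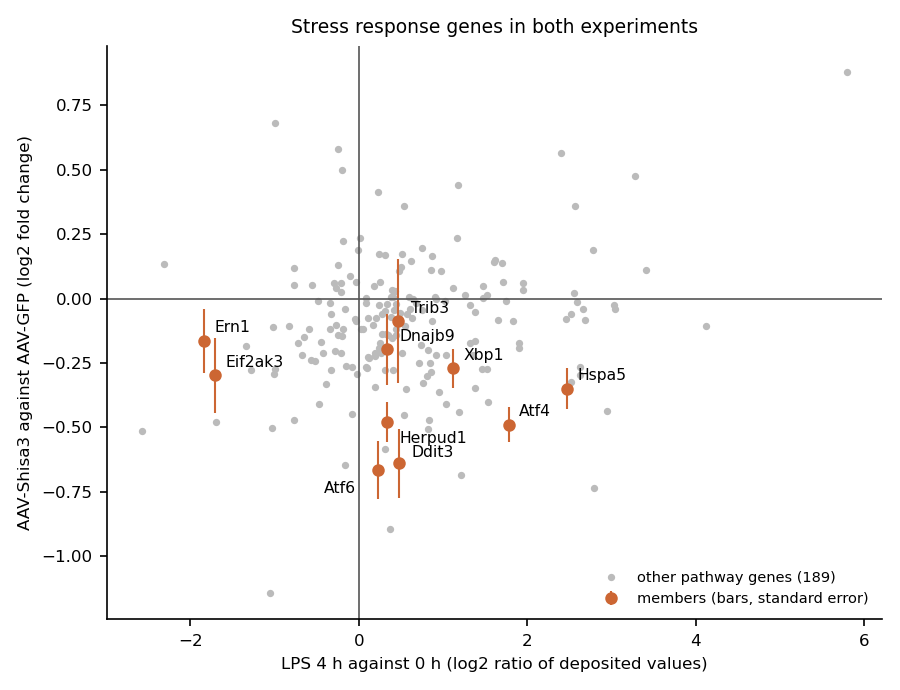
Each point is a gene, with the log2 ratio of deposited values at 4 h against 0 h of LPS (1 library each) on the horizontal axis and the log2 fold change of AAV-Shisa3 against AAV-GFP (n = 2 per group) on the vertical axis. The 10 stress response genes, with standard errors on the vertical axis, all lie below 0 vertically, and 8 of them lie to the right of 0, a number that is 3 on library totals.

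The pathway lists were read by the same size rule after LPS, with ratios of deposited values. On library totals every ratio at 4 h given below is 1.77 times smaller. Among 34 measured ATF4 and CHOP targets, 16 were past 2-fold upwards at 2 h and 3 downwards, with a median log2 difference of 0.91 beside -0.05 for all genes. At 4 h 14 were higher and 4 lower with a median of 0.65 beside -0.04. The shares of all genes were 20.5% and 24.7% at 2 h and 22.2% and 23.6% at 4 h. On library totals 11 were higher and 7 lower at 2 h, and 10 and 10 at 4 h, against 13.3% and 40.6% of all genes at 2 h and 12.8% and 44.5% at 4 h. Slc7a11, the cystine transporter subunit, was 55.4-fold higher at 4 h (45.1 to 69.0), Nupr1, a stress-induced chromatin protein, 17.4-fold (15.2 to 20.0) and Cebpb 9.72-fold (9.14 to 10.4). Pck2, the mitochondrial PEP carboxykinase, was at a ratio of 0.168 (0.147 to 0.192), Sesn2, a stress-induced inhibitor of mTORC1 signalling, at 0.308 (0.260 to 0.365) and Cebpg at 0.396. The targets thus split, with Trib3 and Ddit3 in neither group at 4 h.

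Among 13 eIF2α kinases and phosphatase subunits, 5 were higher and 1 lower at 4 h, with a median of -0.08, and on library totals 3 and 6. The same shares of all genes apply, here and for the lists that follow, namely 22.2% higher and 23.6% lower on deposited values and 12.8% and 44.5% on library totals. Both regulatory subunits that bring phosphatase to eIF2α were high. Ppp1r15b was at 1202, 9615 and 12729 at the 3 time points, 10.6-fold higher at 4 h (10.1 to 11.1). Ppp1r15a, which encodes GADD34, was at 347, 3476 and 1342, higher 10.03-fold at 2 h and 3.87-fold at 4 h. Compared with Eif2ak3, which was lower, Eif2ak2 went the other way and Eif2ak4 the same way. Eif2ak2, the double-stranded RNA sensor PKR, was 8.19-fold higher at 4 h (7.77 to 8.65), and Eif2ak4, the amino acid sensor GCN2, was at a ratio of 0.201 (0.171 to 0.236). In the AAV experiment these same genes differed by at most 0.14 on the log2 scale and did not pass the test.

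Among 33 ER chaperones and folding enzymes, 9 were higher and 3 lower at 4 h, with a median of 0.19, and on library totals 4 and 8, so the share of 9 in 33 lies near that of all genes. Manf, a secreted ER stress protein, was 6.18-fold higher (5.58 to 6.87), Pdia5, a disulfide isomerase, 6.03-fold (2.72 to 15.8, from 7 and 50 reads) and Dnajc1 3.87-fold. Cdnf, Uggt2 and Ero1lb (Ero1b in RefSeq) were at ratios of 0.169, 0.298 and 0.412. Of 32 genes of ER-associated degradation, 4 were higher and 2 lower (median 0.40, on library totals 1 and 7), with Syvn1, the ubiquitin ligase HRD1, 3.73-fold higher, Rnf139 3.05-fold, Vimp 2.76-fold, and Tmem129 and Ngly1 at 0.491 and 0.496. Of 43 genes of translocation and transport, 8 were higher and 0 lower (median 0.51, on library totals 3 and 3), led by Sec23b, a coat protein of ER exit vesicles, at 6.42-fold, Arf4 at 5.90-fold and Srp54a at 5.74-fold. Of 20 aminoacyl-tRNA synthetases, 5 were higher and 0 lower (median 0.21, on library totals 2 and 7), led by Rars at 5.86-fold, Wars at 5.72-fold and Farsa at 2.86-fold. Of 21 regulators at the ER membrane, 8 were higher and 1 lower (median 0.31, on library totals 4 and 5), with Casp12 at 12.2-fold, Creb3l1 at 8.24-fold, Ptpn1 at 6.33-fold and Creb3l2 at 0.491.

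**Figure D4:**
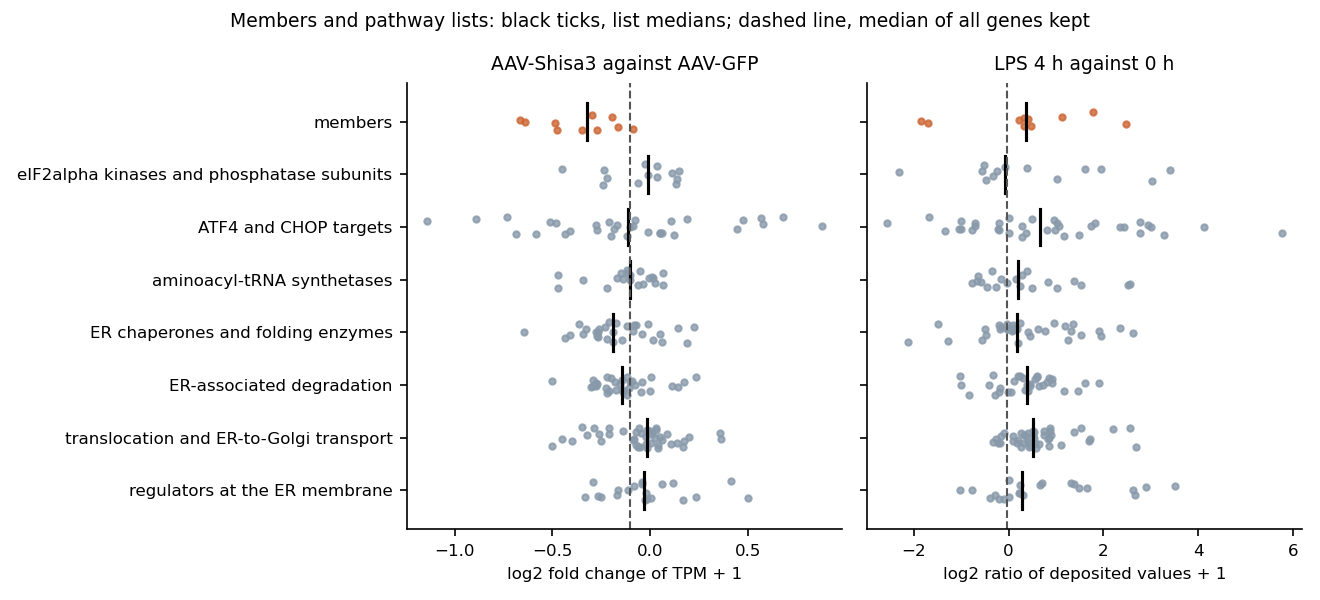
Points are genes of the 10 stress response genes (members) and of each pathway list, with the log2 fold change of AAV-Shisa3 against AAV-GFP on the left (n = 2 per group) and the log2 ratio at 4 h against 0 h of LPS on the right (1 library each), list medians as black ticks and the median of all genes as a dashed line. On the left the median of the 10 genes is -0.32 and those of the lists run from -0.19 to -0.01, and on the right the ATF4 and CHOP targets have the highest median, 0.65.

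At 4 h of LPS the genes that share ERSE with Hspa5 were past 2-fold about as often as all genes, though most of the downward calls rest on few reads. At 2 h, 2 of 20 were higher and 5 lower, against 20.5% and 24.7% of all genes. Of 20, Hspa5 included, with a mean of at least 1, 4 were past 2-fold upwards at 4 h (Hspa5, Pdia6, Syvn1 and Creld2) and 4 downwards, with a median of -0.01, against 22.2% and 23.6% of all genes, and on library totals 3 and 8, against 12.8% and 44.5%. Of the 4 downwards, Ero1b, listed above as Ero1lb, had 777 reads at 0 h and 379 at 4 h, while Calr4 (5 and 0 reads), Ptgdr2 (4 and 1) and 1700122E12Rik (21 and 9) were near the limit of detection. Calr4 and Ptgdr2 passed the filter only through their 0 h values, so their lower values at 4 h are no evidence of a fall. Pdia6, a disulfide isomerase, was at 996 and then 3726 (3.74-fold), and Creld2 at 154 and then 352 (2.28-fold). Calr stood at 1.93-fold and Hsp90b1, for the ER chaperone GRP94, at 1.70-fold, both under the 5.53-fold of Hspa5.

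The genes with the profile most like that of a stress response gene were found by Euclidean distance of log2(value + 1) over the 7 libraries, each experiment centred on its own mean, among 10532 genes. Nearest to Hspa5 were Wdr59 (distance 0.172), Mdm2 (0.205) and Irf2bpl (0.242). Mdm2 was at 1154, 3773 and 5523 after LPS, and at 129 and 134 TPM in AAV-GFP against 110.0 and 114 TPM in AAV-Shisa3. Nearest to Ddit3 were Kctd9 (0.290), Chst14 (0.358) and Brcc3 (0.386). Kctd9 shared the dip, at 134, 80.8 and 166 after LPS.

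Markers of other cells also differed between the LPS libraries. In CPM, recovered reads scaled to a common library total, 8 macrophage markers summed to 33412, 23350.1 and 18878 at 0 h, 2 h and 4 h, and 8 neutrophil markers to 470.4, 625 and 397. The plasma cell list summed to 206, 116 and 74.2, the fibroblast list to 45.7, 45.0 and 30.5 and the T and B cell list to 12.9, 15.6 and 5.63. With 1 library per time point, time and library cannot be told apart, and the part of these shifts in the values above was not tested.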

How the data were processed

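RNA-seq values of mouse BMDMs were used. For the LPS libraries the authors deposited a signal per gene, in which every value is a whole number of reads times 1 factor per library. All values came out whole within 0.001 reads. For the AAV samples the authors deposited TPM with 2 decimals. The aligner and counter are not given in the sources used here. The submitters' processing notes name mm9, whereas 99.2% of the LPS identifiers match GENCODE M21 (GRCm38), so the only coordinates printed are those of RefSeq windows on GRCm38.p6.

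AAV samples (2 per group) were compared with limma 3.58.1 with trend on log2(TPM + 1), over the 11218 genes whose mean TPM reached 1, adjusted by Benjamini-Hochberg, at a threshold of 0.05. The design cannot reach an exact two-sided permutation p below 0.333. The script was tested on simulated data with independent noise, 200 changed genes and no shift shared by all genes of a sample. That test does not show how reliable the calls made here are. LPS libraries were compared by ratios of deposited values with exact (Clopper-Pearson) 95% counting intervals, and by a 2-fold size rule on log2(value + 1). edgeR 4.0.16 gave TMM factors alone. The 10 genes and the lists were chosen with earlier results of these data known. From each list, up to 4 genes per direction past the AAV threshold, and the 3 largest rises and falls past 2-fold at 4 h of LPS with at least 10 reads, were named. In addition, Calr, Creld2, Pdia6, Hsp90b1, the ERSE genes that overlapped or were lower, the ERSE-II genes and the 2 h value of Ppp1r15a were named after their values were seen.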

Additional observations from a re-analysis of the deposited data

Results flagged for a closer look

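Ddit3 and Dnajb9 went in opposite directions at the 2 time points of LPS. The fold of Ddit3 against 0 h was 0.560 at 2 h and 1.39 at 4 h, and that of Dnajb9 was 0.282 at 2 h and 1.26 at 4 h. The difference between the time points was not tested, since each time point is 1 library, and both ratios use the same 0 h library. On reads scaled to library totals all 4 ratios were below 1, at 0.354 and 0.784 for Ddit3 and at 0.178 and 0.709 for Dnajb9, so the higher value than at 0 h rests on the scale, while the higher value at 4 h than at 2 h was seen on both. The 2 h library was the shallowest, with 30 reads of Ddit3 and 33 of Dnajb9.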

How the results depend on the processing

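In the AAV comparison 4 of the 10 genes, 5 list genes and 460 of all genes were called lower, and 0, 2 and 250 higher. Without the trend these were 0, 0 and 4 lower and 0, 0 and 1 higher. With samples centred on their medians they were 1, 1 and 230 lower and 0, 4 and 410 higher. With no filter on low values all 6 counts were 0, with 2411 of all genes lower and 1118 higher at an unadjusted p under 0.05. With a value of at least 1 required in every sample, 13 list genes were lower and 4 higher. Leaving out 1 sample gave 0 to 0 of the 10 genes, 0 to 0 list genes lower and higher, 0 to 10 of all genes lower and 0 to 32 higher. The log2 fold change of Trib3 turned to 0.028 with centring and ran from -0.34 to 0.16 when 1 sample was left out. The replicate block gave 5 of the 10 genes, 15 list genes and 851 of all genes lower, and 0, 5 and 424 higher. The deviations of same-numbered samples correlated at 0.188 over 11218 genes. With only 2 pairs, this value cannot decide whether same-numbered samples were paired.

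For LPS, library totals gave 1 of the 10 genes past 2-fold upwards at 2 h and 1 at 4 h, 20 and 27 list genes higher and 33 and 46 lower, and 2377 and 2304 of all genes higher and 7290 and 7985 lower. List genes lower at 4 h were 5 with libraries centred on their medians and 7 with a pseudocount of 5. Of all genes from 2 h to 4 h, 1830 were higher and 1551 lower with a pseudocount of 5, and 2110 were higher with a mean of at least 5. Scaling moved the split of calls because each ratio shifts by a constant. For the other changes the cause was not tested. A count test on the recovered reads could not be fitted, as each time point is 1 library. Depth limits Trib3, with 5 to 18 reads.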
